A study of Mus musculus with 6 samples.

Results

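The genes described here are the MHC-linked odorant receptors (ORs) of the mouse, taken by name as every gene called Olfr followed by a number from 90 to 137, without genes whose name ends in -ps. The rule found 44 genes of the 24661 genes in the deposited files, and these 44 belong to the 1086 intact ORs, the Olfr genes that neither the files nor the annotation mark as pseudogenes. Of the 48 numbers in the range, 3 carried a -ps name and 1, Olfr100, was not analysed here. The naming rule uses no measured value.

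ORs are G protein-coupled receptors that bind odorants in the cilia of olfactory sensory neurons (OSNs), and a mature OSN expresses a single OR out of the whole repertoire. Odorant binding activates the G protein Gnal and the adenylate cyclase Adcy3, and the cAMP formed opens a cation channel built from Cnga2, Cnga4 and Cngb1. RTP1 and RTP2 are transmembrane proteins of OSNs that help ORs leave the endoplasmic reticulum and reach the cell surface. OR genes lie in clusters on most chromosomes, and the MHC-linked cluster lies beside class I genes of the major histocompatibility complex, next to which the human genome holds a related OR cluster.

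The study sequenced RNA of the whole olfactory mucosa, the sensory epithelium together with surrounding tissue, from 3 wild-type and 3 RTP1,2DKO mice on postnatal day 21. RTP1,2DKO mice lacked both genes in every cell. The alleles were made in 129/B6 hybrid ES cells, leaving loxP in place of the Rtp1 coding sequence and a puromycin resistance gene in place of that of Rtp2. The labels give C57BL/6 as the strain of both groups, to which the line was crossed repeatedly. According to the methods the mice were littermates matched for sex, 2 males and 1 female.

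The total count per mouse lay between 31125410 and 41636996, and the counts of the 44 ORs together between 6141 and 11590. Rtp1 had 20520, 25300 and 13540 normalised counts in the wild-type mice numbered 1 to 3, against 90.6, 85.4 and 109 in the RTP1,2DKO mice with those numbers, and values of mice are given in this order throughout. Rtp2 had 8497, 9512 and 7157 normalised counts in the wild-type and 58.0, 26.2 and 51.0 in RTP1,2DKO. Both targeted genes were therefore lower in every RTP1,2DKO mouse, by log2 fold changes of -7.70 ± 0.26 (SE, n = 3 mice per group) and -7.55 ± 0.25, with an adjusted p of 1.2e-08 each (edgeR quasi-likelihood test, Benjamini-Hochberg). All 5 markers of mature OSNs were lower in RTP1,2DKO, and Omp fell by 0.90 and Adcy3 by 1.41 on the log2 scale. Of the 4 markers of immature OSNs, Gap43 and Gng8 were higher. No marker of basal cells, sustentacular cells, respiratory ciliated cells, vomeronasal neurons, blood or immune cells passed the test, and the summed level of the 3 blood markers was 55000 to 89710 in the wild-type and 87590 to 159900 in RTP1,2DKO. In bulk RNA, fewer cells of a type and less RNA per cell cannot be told apart. What the changes in these markers contribute to the OR values was not tested.

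All 44 ORs lie on chromosome 17 (GRCm38, GENCODE M21), in a stretch of 1.25 Mb from chr17:37083871-38336643, with 22 genes on each strand. Each has a complete open reading frame in 1 coding exon, of 918 to 1161 bases with the stop codon. Their MOR names, which group mouse ORs by similarity of the protein, came from RefSeq and placed 16 genes in MOR256, 9 in MOR218, 7 in MOR263, 5 in MOR156, 4 in MOR250 and 1 each in MOR249 and MOR121. Olfr111 had no MOR name in that table, and its coding sequence was 98.1% identical to that of Olfr110, the MOR249 gene. For 35 of the 44 ORs the most similar intact OR of the genome was another of the 44. Olfr125 and Olfr127 were most similar to Olfr761, and Olfr136 to Olfr138, ORs in the same stretch that the naming rule left out. The files list 154 transcripts for the 44 ORs, between 1 and 11 per gene with a median of 3.

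Several of these receptors are near copies of each other, and some near copies differed in what happened in RTP1,2DKO. The 150 bases of coding sequence with the most differences are shown for 3 such sets, with capitals where the aligned genes of a set are not all alike. Olfr91, Olfr92 and Olfr93 are MOR256 genes side by side on the minus strand, at chr17:37093153-37093302, chr17:37111261-37111410 and chr17:37151251-37151400, coding bases 571 to 720. They are shown because Olfr92 was higher relative to other ORs while the other two were lower.
Olfr91: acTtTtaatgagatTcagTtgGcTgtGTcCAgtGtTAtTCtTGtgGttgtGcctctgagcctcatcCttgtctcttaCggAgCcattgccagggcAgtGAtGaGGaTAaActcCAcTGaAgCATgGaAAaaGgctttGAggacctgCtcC
Olfr92: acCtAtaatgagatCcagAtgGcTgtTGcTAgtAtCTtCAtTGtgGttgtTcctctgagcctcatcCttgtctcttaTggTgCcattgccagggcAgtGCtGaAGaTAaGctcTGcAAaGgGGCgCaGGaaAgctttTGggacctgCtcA
Olfr93: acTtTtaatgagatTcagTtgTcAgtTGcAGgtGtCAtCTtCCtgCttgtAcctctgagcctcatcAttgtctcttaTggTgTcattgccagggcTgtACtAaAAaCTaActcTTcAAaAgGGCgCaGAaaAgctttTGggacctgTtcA

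Olfr118, Olfr119 and Olfr121 are MOR263 genes on the plus strand, at chr17:37672166-37672315, chr17:37700813-37700962 and chr17:37751997-37752146, coding bases 142 to 291. They are shown because Olfr121 fell while Olfr119, which differs from it at 43 of 966 coding positions, rose.
Olfr118: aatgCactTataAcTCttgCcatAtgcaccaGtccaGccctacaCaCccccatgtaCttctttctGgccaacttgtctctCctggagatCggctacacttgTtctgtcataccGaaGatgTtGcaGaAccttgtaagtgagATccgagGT
Olfr119: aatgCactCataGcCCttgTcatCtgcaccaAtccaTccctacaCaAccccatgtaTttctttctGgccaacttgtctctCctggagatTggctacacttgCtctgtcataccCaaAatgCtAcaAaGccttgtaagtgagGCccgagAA
Olfr121: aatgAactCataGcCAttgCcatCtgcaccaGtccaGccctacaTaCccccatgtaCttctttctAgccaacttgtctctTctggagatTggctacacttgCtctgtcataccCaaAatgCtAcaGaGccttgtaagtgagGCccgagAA

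Olfr133, Olfr134 and Olfr135 are MOR256 genes on the plus strand, at chr17:38149373-38149522, chr17:38175869-38176018 and chr17:38209030-38209179, coding bases 784 to 933. They are shown because Olfr134 was higher relative to other ORs, a comparison in which Olfr133 and Olfr135 did not pass. In the all-gene fit Olfr133, which differs from Olfr134 at 44 of 939 coding positions, and Olfr135 were lower, and Olfr134 did not pass. Neither fit called these genes in opposite directions.
Olfr133: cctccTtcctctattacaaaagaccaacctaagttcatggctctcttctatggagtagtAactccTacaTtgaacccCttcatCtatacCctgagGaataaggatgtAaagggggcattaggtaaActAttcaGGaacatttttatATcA
Olfr134: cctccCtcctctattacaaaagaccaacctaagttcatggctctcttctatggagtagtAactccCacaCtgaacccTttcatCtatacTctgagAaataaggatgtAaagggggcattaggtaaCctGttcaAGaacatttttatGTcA
Olfr135: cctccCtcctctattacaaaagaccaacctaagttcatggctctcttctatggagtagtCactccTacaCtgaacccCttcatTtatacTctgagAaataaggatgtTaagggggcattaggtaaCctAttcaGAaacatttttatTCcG

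A read from a stretch that is the same in 2 genes cannot be placed by its sequence, so the values of near copies are less certain than those of distinct genes. Each gene was cut into words of 31 bases, and the part of these words that no other gene of GENCODE M21 holds was 29.0% for Olfr98, the lowest of the 44, and 82.9% at the median. It was at least 80% for 28 of the ORs. It was 50.4% for Olfr92, 51.5% for Olfr121, 61.3% for Olfr119, 62.4% for Olfr118, 63.0% for Olfr110 and 75.6% for Olfr111. The gene that shared most words with Olfr92 was Olfr753-ps1, which is not among the ORs described here, with 36.5% of them. How far reads of that gene enter the counts of Olfr92 was not tested. Olfr115 and Olfr116 overlap in the annotation, on the same strand, and their counts are uncertain for that reason too.

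The first comparison asked which MHC-linked ORs were differentially expressed between the genotypes when all genes set the normalisation. With an adjusted p under 0.05 in the fit to all 22152 genes tested, 17 of the 44 ORs were lower in RTP1,2DKO, 2 were higher and 25 did not pass. Over all genes tested, 3.19% were lower and 0.438% higher, and over the intact ORs tested, 39.1% were lower and 4.17% higher. The 38.6% lower and 4.55% higher among the MHC-linked ORs were thus near the values for intact ORs as a whole. Among the 41 MHC-linked ORs that averaged 10 or more counts per mouse, the median log2 fold change was -0.89, and it was -1.17 among the 919 other intact ORs with such counts. Without regard to a test, all 3 RTP1,2DKO mice lay below all 3 wild-type mice for 22 of the 44 ORs and above them for 7, and these shares of 50% and 15.9% stood beside 52% and 12% of the intact ORs.

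**Figure D1:**
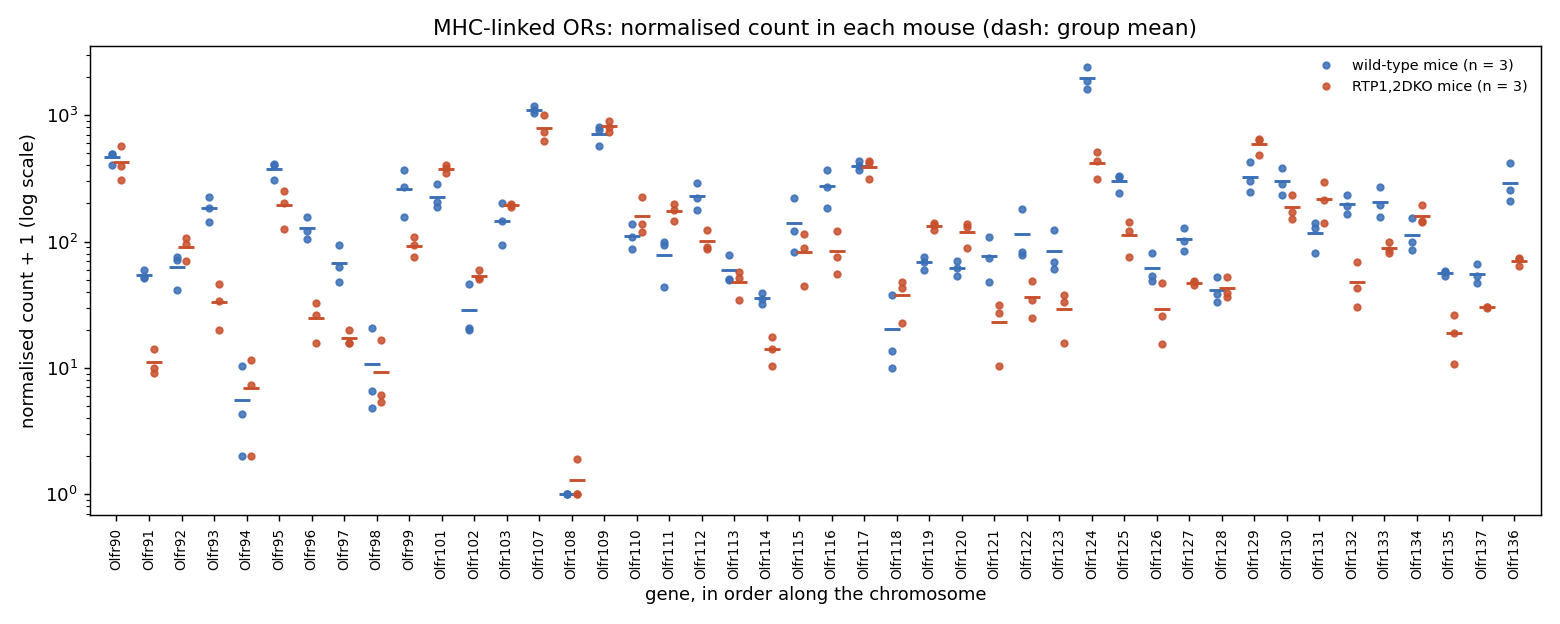
Normalised count plus 1 of each of the 44 MHC-linked ORs in each mouse, on a log axis, in order along chromosome 17. Points are mice, 3 wild-type in blue and 3 RTP1,2DKO in red, and dashes are group means. Olfr124 fell from between 1598 and 2396 to between 313 and 506, and Olfr108 had at most 1 count in any mouse.

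Olfr124, a MOR256 gene at chr17:37799888-37808617, had the highest level per length of the 44 over all 6 mice, with 27.0 ± 7.94 FPKM in the wild-type and 6.30 ± 2.04 in RTP1,2DKO (mean ± SD, n = 3 mice per group, as for all values given in this form). In RTP1,2DKO other ORs lay above it, with Olfr129 highest at 13.6 ± 3.00 FPKM. Olfr124 had 2396, 1879 and 1598 normalised counts in the wild-type against 506, 313 and 437 in RTP1,2DKO. The groups were far apart, with a log2 fold change of -2.23 ± 0.19 (SE) and an adjusted p of 6.5e-05. Its coding sequence is not close to that of any other OR, with 69.3% identity to the most similar one, and 99.1% of its words occurred in no other gene. It took 20.3% of the counts of the MHC-linked ORs in the wild-type and 6.35% in RTP1,2DKO.

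Of the 16 MOR256 genes, 7 were lower in the all-gene fit and none was higher. Olfr93 fell by 2.49 on the log2 scale, from 184, 223 and 141 normalised counts to 18.8, 44.7 and 32.8 (adjusted p = 0.0008). Olfr91 fell by 2.46, from 58.7, 50.8 and 51.8 to 13.0, 8.1 and 9.0 (adjusted p = 0.0043). In both genes every RTP1,2DKO mouse had less than every wild-type mouse. Olfr136 had 256, 415 and 207 normalised counts in the wild-type and 72.3, 62.7 and 73.7 in RTP1,2DKO mice, a change of -2.07 ± 0.27. Olfr132 had 191, 233 and 163 against 42.1, 68.0 and 29.4, with a log2 fold change of -2.06 ± 0.30. Olfr132 is distinct in sequence, with 99.7% of its words in no other gene. Of the words of Olfr136, 90.5% occurred in no other gene, and it is 95.3% identical to Olfr138, which the naming rule left out. In neither gene did the groups overlap. Olfr133 had 193, 269 and 157 normalised counts in the wild-type and 97.6, 80.2 and 84.8 in RTP1,2DKO, which made its log2 fold change -1.24 ± 0.25 (adjusted p = 0.013). Olfr135 had 56.2, 52.7 and 57.9 against 25.4, 9.80 and 18.0, a log2 fold change of -1.69 ± 0.40 (adjusted p = 0.037), and its adjusted p was 0.050, just over the threshold, with the replicate block.

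In MOR218, 4 of 9 genes were lower and none was higher. Olfr116 had 269.7, 364 and 182 normalised counts in the wild-type against 121, 74.3 and 54.8 in RTP1,2DKO (log2 fold change -1.72 ± 0.32, adjusted p = 0.0074). Olfr125 had 325, 328 and 242 against 142, 121 and 74.5 (-1.41 ± 0.25, adjusted p = 0.0052). Olfr125 is the MOR218 gene least like the others, at most 70.1% identical to any OR. Olfr112 had 221, 291 and 177 normalised counts against 123, 86.6 and 89.1 (-1.21 ± 0.25, adjusted p = 0.015). Olfr127 had 127, 83.3 and 101 against 47.6, 44.3 and 46.8 (-1.15 ± 0.28, adjusted p = 0.043), and its adjusted p was 0.051 with the replicate block. No wild-type mouse overlapped with RTP1,2DKO in any of the 4. The other 5 genes had log2 fold changes from -1.38 (Olfr114) to 0.04 (Olfr128) that did not pass. Among them Olfr115, at 10.4 ± 6.08 FPKM in the wild-type and 5.74 ± 2.53 in RTP1,2DKO, had 120.3, 219 and 81.6 normalised counts in the wild-type and 87.1, 113 and 43.8 in RTP1,2DKO, and its groups overlapped.

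MOR263 held genes called in both directions. Olfr129 had 301, 424 and 244 normalised counts in the wild-type and 638.5, 652 and 481 in RTP1,2DKO, and was higher in every RTP1,2DKO mouse (log2 fold change 0.87 ± 0.21, adjusted p = 0.037). Olfr119 had 68.4, 74.3 and 58.9 against 140.2, 133 and 122 (0.97 ± 0.24, adjusted p = 0.045), again without overlap, and its adjusted p was 0.053 with the replicate block. Olfr120 and Olfr118 had log2 fold changes of similar size, 0.95 ± 0.27 and 0.89 ± 0.53, that did not pass. On the other side, Olfr121 had 73.6, 108 and 47.0 normalised counts in the wild-type and 30.7, 26.3 and 9.40 in RTP1,2DKO (-1.79 ± 0.44, adjusted p = 0.045). Olfr122 had 81.9, 179.7 and 76.8 against 47.8, 33.6 and 24.0 (-1.69 ± 0.40, adjusted p = 0.035). In both, the highest RTP1,2DKO mouse stayed under the lowest wild-type mouse. Olfr95, which is only 63.2% identical to the nearest of the other MHC-linked ORs, had 411, 405 and 307 normalised counts against 248, 125 and 202 (-0.97 ± 0.24, adjusted p = 0.044).

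The single MOR121 gene, Olfr96, fell by 2.40 on the log2 scale, from 120.0, 155 and 104 normalised counts in the wild-type to 31.6, 25.3 and 14.7 in RTP1,2DKO (adjusted p = 0.0013). In MOR156, 2 of 5 genes were lower. Olfr97 had 46.4, 92.7 and 62.2 normalised counts against 14.7, 14.8 and 19.0 (-2.06 ± 0.40, adjusted p = 0.012). Olfr99, at 15.9 ± 6.83 FPKM in the wild-type and 5.50 ± 1.61 in RTP1,2DKO, had 267, 365 and 154 against 107, 93.5 and 74.7 (-1.52 ± 0.30, adjusted p = 0.011). All 3 of these genes were lower in every RTP1,2DKO mouse. Olfr107 did not pass, at -0.50 ± 0.17, although its groups did not overlap. Olfr98 averaged under 10 counts per mouse, like Olfr94 of MOR256, and Olfr108 had a single count in a single mouse, so that no change in these 3 genes was detectable at this depth.

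No gene of MOR250 or MOR249 passed in the all-gene fit. Olfr109 of MOR250, at 8.08 ± 2.06 FPKM in the wild-type and 8.36 ± 1.15 in RTP1,2DKO, had 807, 765 and 574 normalised counts in the wild-type and 904, 803 and 734 in RTP1,2DKO, with overlap between the groups and a log2 fold change of 0.18 ± 0.15. Among ORs that averaged 10 or more counts, Olfr111 had the largest increase that did not pass, 1.14 ± 0.29 (adjusted p = 0.058), and with the replicate block it passed at 1.17 ± 0.24 (adjusted p = 0.027).

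Many calls changed when a mouse was left out. Of the 19 calls, 8 held when any of the 6 mice was left out, namely the decreases of Olfr91, Olfr93, Olfr96, Olfr116, Olfr124, Olfr125, Olfr132 and Olfr136. The increase of Olfr119 did not pass in any of these 6 fits, and that of Olfr129 passed only without wild-type mouse 2 and without RTP1,2DKO mouse 3. The decreases of Olfr121, Olfr127 and Olfr135 passed in 1 fit of the 6, those of Olfr95 and Olfr122 in 2, those of Olfr97, Olfr112 and Olfr133 in 3 and that of Olfr99 in 4. The number of lower ORs was 9 without wild-type mouse 2 and 9 without RTP1,2DKO mouse 2 or 3.

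The next comparison asked how the ORs stood relative to each other, by taking the size factors and the adjustment from intact ORs alone. Such size factors follow the typical OR. The median normalised count of the intact ORs outside the 44 had a ratio of RTP1,2DKO over wild-type of 0.439. Their summed count had one of 0.885. ORs that were higher in this comparison are here called overrepresented (oORs) and those that were lower underrepresented (uORs). These classes rest on the size factors and test used here and need not hold the same genes as the classes of those names in the study. In the study, underrepresented ORs outnumbered overrepresented ones among intact ORs. The same held here when the mice were scaled to their total count on intact ORs, given below, but not in this fit. The fit gave 16 oORs and 8 uORs among the 44 MHC-linked ORs, and 20 that did not pass. The shares were 36.4% and 18.2%, beside 30% oORs and 26.3% uORs among all intact ORs tested. The change of scale raised the log2 fold changes of the MHC-linked ORs by a median of 0.98 and turned the sign of 8 of them from minus to plus, Olfr90, Olfr98, Olfr107, Olfr113, Olfr115, Olfr117, Olfr130 and Olfr137. All 8 uORs were also lower in the all-gene fit, while 14 of the 16 oORs had not passed there. An increase among ORs is thus not the same as an increase over the wild-type. When the 6 mice were instead scaled to their total count on intact ORs, 12 of the ORs were higher and 20 lower, beside 17% and 49.2% of the intact ORs. All 12 were among the 16 oORs, and all 8 uORs were among the 20. The 4 oORs that no longer passed were Olfr90 (0.03), Olfr109 (0.38), Olfr117 (0.14) and Olfr128 (0.23).

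**Figure D2:**
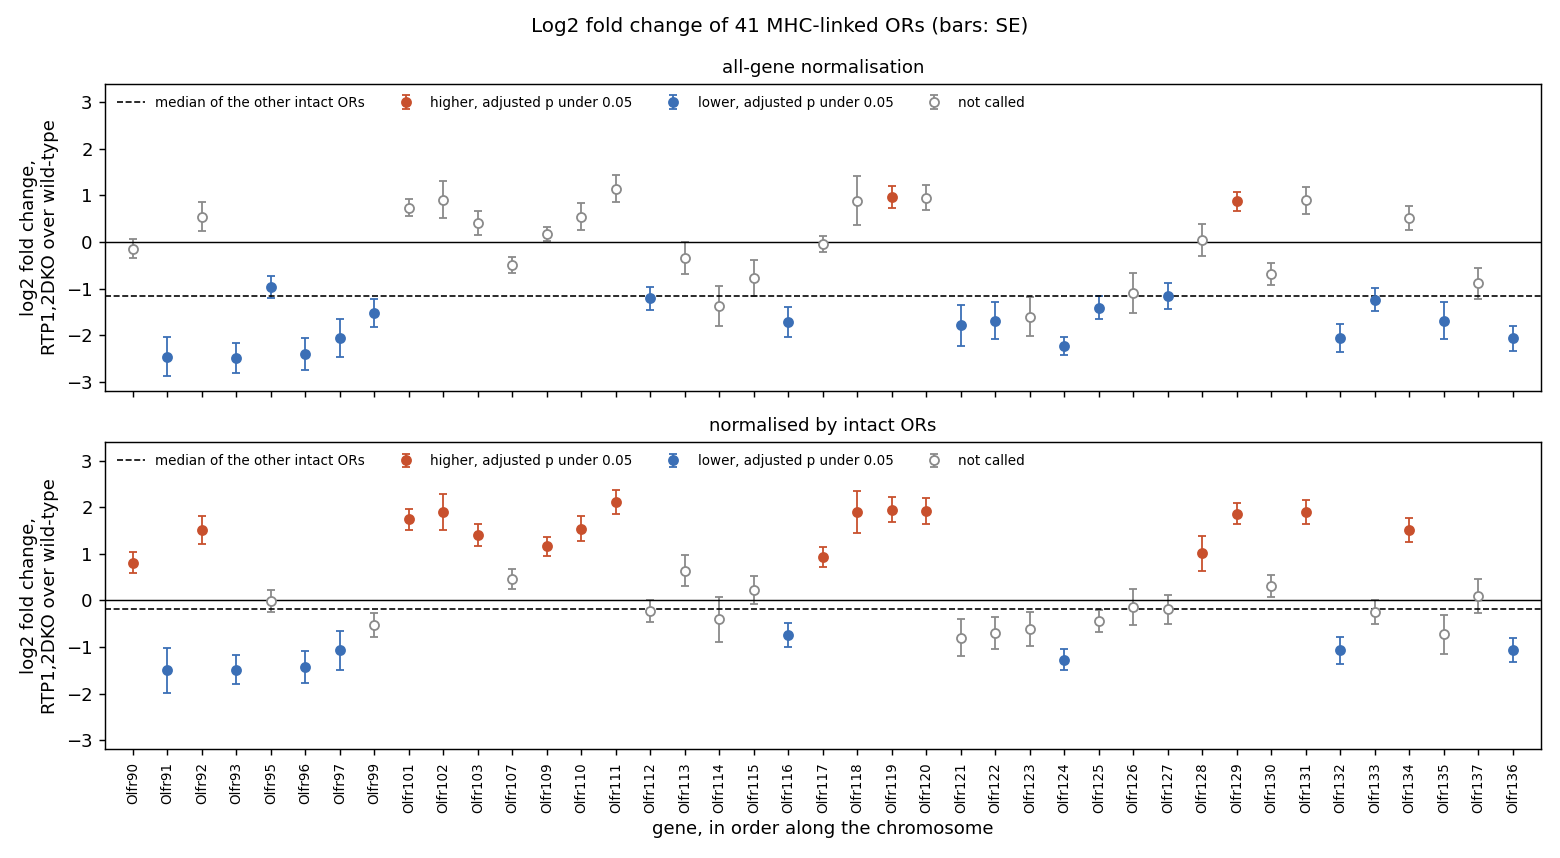
Log2 fold change of RTP1,2DKO over wild-type, with SE, for the 41 MHC-linked ORs that averaged 10 or more counts, in order along the chromosome, under all-gene normalisation (top) and normalised by intact ORs (bottom). Filled points passed at an adjusted p under 0.05, red higher and blue lower, and the dashed line is the median of the 919 other intact ORs, -1.17 above and -0.19 below. The order of the ORs is the same in both panels, but 2 were called higher in the top panel and 16 in the bottom one.

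The 16 oORs came from 5 MOR families and Olfr111. Olfr111, at chr17:37508030-37532449, had the largest increase, 2.12 ± 0.26 on the log2 scale (adjusted p = 5.6e-09). On the all-gene scale it had 92.8, 97.9 and 42.9 normalised counts in the wild-type against 195.5, 178 and 145 in RTP1,2DKO, so that the groups did not overlap. Its near copy Olfr110 had 86.2, 136 and 108 against 118, 225 and 136, with 1 wild-type mouse above the lowest RTP1,2DKO mouse, and rose by 1.54 ± 0.27 among ORs.

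All 4 genes of MOR250 were oORs, with increases from 1.16 ± 0.21 for Olfr109 to 1.90 ± 0.38 for Olfr102, and 1.74 ± 0.22 for Olfr101 and 1.41 ± 0.24 for Olfr103 in between. Olfr102 had 19.5, 44.8 and 18.9 normalised counts on the all-gene scale in the wild-type and 50.2, 49.3 and 58.6 in RTP1,2DKO. Olfr101, Olfr102 and Olfr103 follow each other on the minus strand. Olfr109 lies further along on the plus strand, past the 3 genes with a -ps name, Olfr107 and Olfr108. Of these, Olfr107 and the -ps genes were lower in every RTP1,2DKO mouse on the all-gene scale. Together the 4 MOR250 genes had 1172, 1294 and 870.3 normalised counts in the wild-type and 1486, 1429 and 1388 in RTP1,2DKO. Every RTP1,2DKO mouse lay above every wild-type mouse in this sum. The 3 genes Olfr101, Olfr102 and Olfr103 are 89.0% to 96.7% identical, whereas Olfr109 is 70.2% identical to Olfr101, its nearest OR, and 99.3% of its words were its own. When the mice were scaled to their total count on intact ORs, Olfr109 no longer passed (0.38 ± 0.22) and the other 3 did.

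In MOR263, the 4 oORs were Olfr119 (1.95 ± 0.27), Olfr120 (1.92 ± 0.28), Olfr118 (1.90 ± 0.45) and Olfr129 (1.86 ± 0.22). On the all-gene scale, Olfr120 had 52.5, 68.9 and 60.2 normalised counts in the wild-type and 137, 88.3 and 129 in RTP1,2DKO, without overlap. Olfr118 had 12.5, 36.8 and 8.90 against 21.5, 47.0 and 41.9, and here the highest wild-type mouse lay above the lowest RTP1,2DKO mouse. Olfr121, Olfr122 and Olfr95 did not pass, with log2 fold changes of -0.80, -0.70 and -0.01 among ORs. Olfr118, Olfr119 and Olfr120 follow each other along the chromosome, and Olfr121 and Olfr122 follow them.

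The 5 oORs of MOR256 were Olfr131 (1.89 ± 0.26), Olfr92 (1.51 ± 0.30), Olfr134 (1.51 ± 0.26), Olfr117 (0.93 ± 0.22) and Olfr90 (0.81 ± 0.22), and its 5 uORs were Olfr91 (-1.50 ± 0.48), Olfr93 (-1.49 ± 0.31), Olfr124 (-1.27 ± 0.22), Olfr132 (-1.07 ± 0.29) and Olfr136 (-1.07 ± 0.26). Olfr117 and Olfr90 had all-gene log2 fold changes of -0.04 and -0.14, with overlap between the groups, and neither passed when the summed count of intact ORs set the scale. The remaining uORs were Olfr96 of MOR121 (-1.43 ± 0.34), Olfr97 of MOR156 (-1.07 ± 0.42) and Olfr116 of MOR218 (-0.74 ± 0.26). Olfr128 was the only oOR of MOR218 (1.01 ± 0.37), but it did not pass with that scale, and its all-gene log2 fold change was 0.04. Among ORs the call of Olfr97 passed in 2 of the 6 fits without 1 mouse, and those of Olfr116 and Olfr128 in 4. With the replicate block, Olfr107 of MOR156 was added to the oORs (adjusted p = 0.011) and Olfr99 to the uORs (adjusted p = 0.049). On the all-gene scale, however, Olfr107 was lower in every RTP1,2DKO mouse than in any wild-type mouse. Scaled to the total count on intact ORs, its log2 fold change was -0.32.

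**Figure D3:**
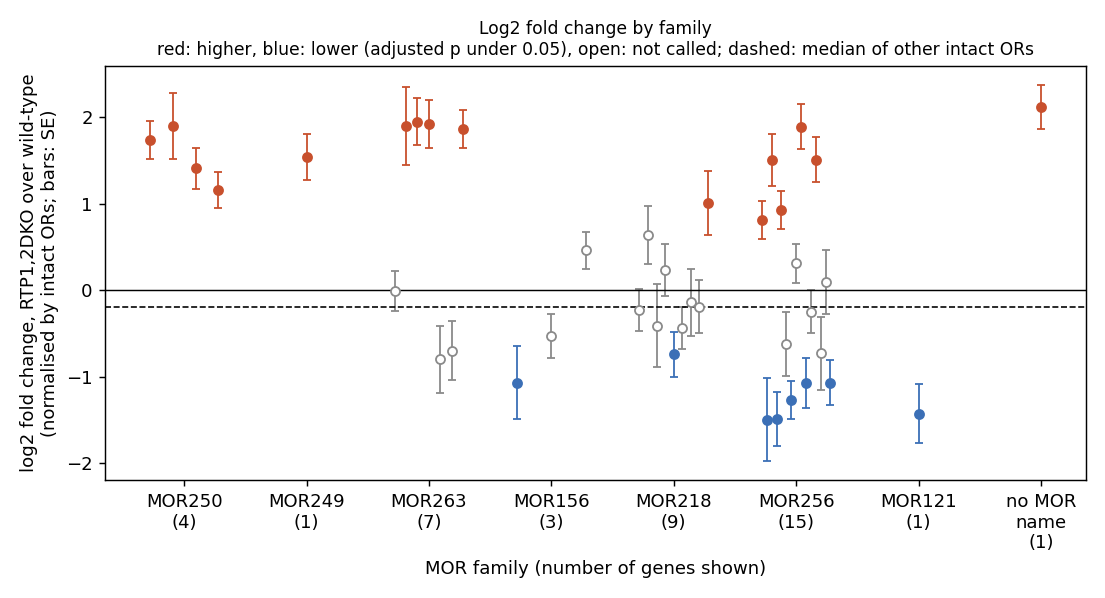
Log2 fold change among ORs (normalised by intact ORs), with SE, of the 41 MHC-linked ORs that averaged 10 or more counts, by MOR family. Red points passed as higher, blue points as lower, and open points did not pass. All 4 genes of MOR250 were higher, MOR263 held 4 that were higher and 3 that did not pass, and MOR256 held 5 in each direction.

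Neither fit called Olfr94, Olfr98, Olfr107, Olfr108, Olfr113, Olfr114, Olfr115, Olfr123, Olfr126, Olfr130 or Olfr137. Of these, Olfr107, Olfr114, Olfr123, Olfr126 and Olfr137 had lower normalised counts in every RTP1,2DKO mouse than in any wild-type mouse, with all-gene log2 fold changes of -0.50, -1.38, -1.60, -1.09 and -0.89. Scaled to the total count on intact ORs, Olfr114 (adjusted p = 0.031), Olfr123 (adjusted p = 0.00074) and Olfr126 (adjusted p = 0.04) were lower. Olfr113 and Olfr130 overlapped between the groups, at -0.34 and -0.69.

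Neighbouring ORs were called in the same and in opposite directions. Read in order, the ORs called among ORs formed 23 neighbouring pairs, of which 12 had the same direction and 11 did not. Olfr91, a uOR, is followed by the oOR Olfr92 and the uOR Olfr93, and Olfr131, an oOR, by the uOR Olfr132. Of 20 other genes of the MHC-linked region, such as H2-M class I genes and genes of the TRIM family, 19 could be tested in the all-gene fit, and 1 of the 20, Trim27, lies on chromosome 13 in the annotation. None was higher and 1 was lower, Gabbr1, a subunit of the GABA-B receptor that lies beside the cluster, at -0.44 ± 0.10 (adjusted p = 0.034), a call that was lost with any mouse left out. Trim31 was at 0 in all mice. Of 14 genes that act in OR gene choice, such as Lhx2, Ldb1 and Kdm1a, none passed the all-gene test, with a median log2 fold change of 0.08. Of 15 genes for signaling and receptor transport in mature OSNs, 11 were lower and none higher, with a median of -0.94. The median was -0.73 for all 44 MHC-linked ORs and -0.89 for the 41 that averaged 10 or more counts. It was -1.17 for the other intact ORs with such counts, and these medians were not compared by a test.

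Similar receptors often changed by similar amounts, but not always. Of the 820 pairs of MHC-linked ORs that averaged 10 or more counts each, 47 had coding sequences at least 85% identical. Their log2 fold changes in the fit normalised by intact ORs differed by a median of 0.64, against 1.24 in the other 773 pairs. Pairs share genes and near copies share reads, the part of which was not tested, and the values are given without a test. Among these 47 pairs, both genes were called among ORs in the same direction in 12 pairs and in opposite directions in 4. The 12 include every pairing of the MOR263 genes Olfr118, Olfr119, Olfr120 and Olfr129. In the all-gene fit the same 2 counts were 7 and 4. There the opposite pairs joined Olfr119 or Olfr129 to Olfr121 or Olfr122. The increases of Olfr119 and Olfr129 mostly did not pass with a mouse left out. Without the share over all pairs of called ORs, these counts do not show that near copies agree more often.

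**Figure D4:**
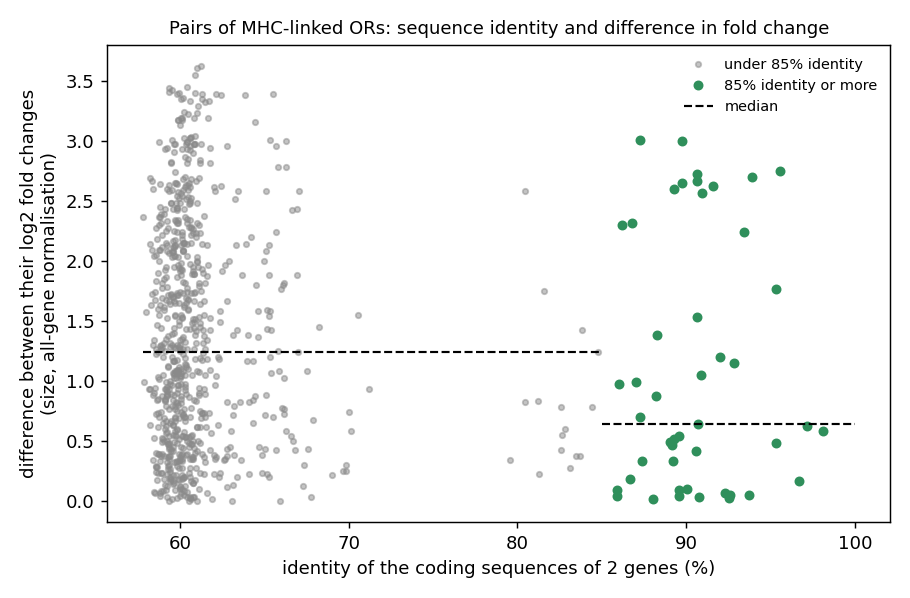
Each point is a pair of MHC-linked ORs that averaged 10 or more counts each, placed by the identity of their coding sequences (in percent). The other axis is the size of the difference between their log2 fold changes in the fit normalised by intact ORs. The axis label names all-gene normalisation, but the values shown come from the fit normalised by intact ORs. The dashed lines are the medians, 1.24 for 773 pairs under 85% identity and 0.64 for 47 pairs at or above it. The green points reach from 0.01 to 3.01, so that near copies include both very similar and very different pairs.

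Olfr91, Olfr92 and Olfr93, whose sequences are shown above, made up 2 of the 4 opposite pairs among ORs, and the other 2 joined Olfr90 to Olfr91 and to Olfr93. Olfr92 had 40.4, 70.8 and 74.6 normalised counts in the wild-type and 106, 95.0 and 69.7 in RTP1,2DKO. The log2 ratio of Olfr92 to Olfr93 within a mouse was -2.18, -1.66 and -0.91 in the wild-type and 2.49, 1.09 and 1.09 in RTP1,2DKO. The ratio was thus below 0 in every wild-type mouse and above 0 in every RTP1,2DKO mouse and is given without a test, since the pair was chosen for its opposite calls. Over the whole coding sequence of 939 bases, Olfr92 had a base of its own where the other 2 genes agreed at 48 positions, Olfr91 at 65 and Olfr93 at 43.

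Olfr119 and Olfr121 were 95.6% identical, the most alike of the opposite pairs in the all-gene fit. This pair and that of Olfr133 and Olfr134 were also chosen after their values were seen, and their ratios are a description. The log2 ratio of Olfr119 to Olfr121 was -0.11, -0.54 and 0.32 in the wild-type and 2.19, 2.34 and 3.69 in RTP1,2DKO, without overlap. Olfr118 was 93.9% identical to Olfr121 and 92.6% to Olfr119, and like Olfr119 it was an oOR. Of the 86 coding positions at which the 3 genes are not all alike, 49 were the third position of a codon, 16 the first and 21 the second.

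Olfr133 and Olfr134 were 95.3% identical, and only Olfr134 was an oOR. Olfr134 had 98.7, 152 and 85.2 normalised counts in the wild-type and 145, 192 and 141 in RTP1,2DKO, with overlap between the groups. The log2 ratio of Olfr134 to Olfr133 went from -0.97, -0.82 and -0.88 to 0.57, 1.26 and 0.74. Olfr135, like Olfr133, was lower in the all-gene fit. By contrast Olfr117 and Olfr130, at 97.2% identity, had log2 ratios of Olfr130 to Olfr117 that overlapped between the genotypes, -0.61, -0.04 and -0.65 in the wild-type and -1.29, -0.40 and -1.53 in RTP1,2DKO.

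**Figure D5:**
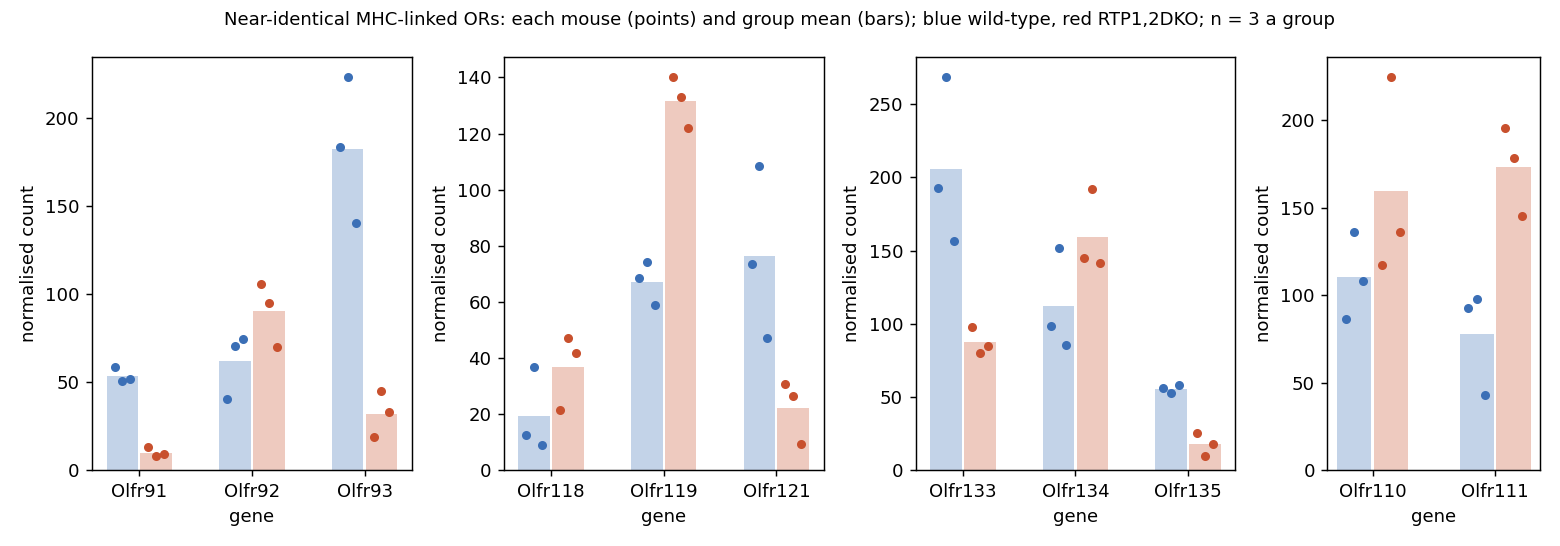
Normalised count of near-identical MHC-linked ORs in each mouse (points) and the group mean (bars), wild-type in blue and RTP1,2DKO in red, 3 mice per group, on linear axes that start at 0. Between the genotypes, the points of Olfr93 and Olfr121 lie lower in RTP1,2DKO without overlap, those of Olfr119 and Olfr111 lie higher without overlap, and those of Olfr92 and Olfr110 overlap.

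As a whole, the MHC-linked ORs had 10080, 11060 and 7892 normalised counts in the wild-type against 7384, 6329 and 6020 in RTP1,2DKO. The groups did not overlap, at 9678 ± 1622 and 6578 ± 715, a ratio of 0.680 (exact permutation p = 0.1, the smallest possible). Scaled by the total count of each mouse instead, the sums were 288, 348 and 210 CPM in the wild-type and 225, 174 and 160 in RTP1,2DKO, which overlapped (exact permutation p = 0.2). Without Olfr124 the sums were 7720 ± 1444 and 6159 ± 659, which overlapped (ratio 0.798, exact permutation p = 0.2). As a share of the counts on all intact ORs they made up 3.14%, 3.10% and 2.55% in the wild-type and 2.44%, 2.42% and 1.97% in RTP1,2DKO (exact permutation p = 0.1). Without Olfr124 the shares were 2.33% ± 0.28 and 2.14% ± 0.27 (exact permutation p = 0.4). A single other OR, Olfr907, held 21.6% ± 2.03 of the counts on intact ORs in the wild-type and 28.2% ± 5.03 in RTP1,2DKO, and of the counts on the remaining intact ORs the MHC-linked ORs took 3.73% ± 0.36 and 3.17% ± 0.19 (exact permutation p = 0.2). The median normalised count of the 44 genes was 112 ± 30.3 in the wild-type and 77.9 ± 14.1 in RTP1,2DKO (exact permutation p = 0.2). The median of the other 1042 intact ORs was 118 ± 16.0 and 51.9 ± 4.61 (exact permutation p = 0.1).

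The transcripts that carried the counts were the same in most genes. The transcript with the highest estimated count was the same in all 6 mice for 26 of the 44 ORs. In Olfr90 the leading transcript held 45.5% of the counts in the wild-type and 90.1% in RTP1,2DKO, and in Olfr116 38.6% and 74.1%. In Olfr95 its share was 76.4% and 31.6%, and in Olfr96 91.4% and 49.6%. The transcript so named led in 4 of the 6 mice for Olfr90 and Olfr95, and in 5 for Olfr96 and Olfr116. The 4 genes were picked for their large shifts. These shares are means of 3 mice, were not tested and divide reads that several transcripts of a gene have in common.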

How the data were processed

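RNA-Seq libraries of whole olfactory mucosa, 3 from wild-type and 3 from RTP1,2DKO mice, were analysed. The authors ran kallisto (version not given in the sources used here) on mouse transcripts with extended OR annotations, with mm10 as the build in the submitters' processing notes, and deposited an estimated count per transcript, which need not be whole, with its length and effective length. The deposited TPM values, which sum to an equal total in each library, were not used in a test. Whether counting used the strand is not given in the sources used here.

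Estimated counts were summed per gene and rounded. FPKM used estimated counts, effective lengths and the total count. Normalised counts are counts divided by the size factors of the all-gene fit. Tests were run in R 4.3.3 with the quasi-likelihood F-test of edgeR 4.0.16 and median-of-ratios size factors from DESeq2 1.42.0, on all genes that reached 1 count in any mouse, with Benjamini-Hochberg adjustment at 0.05, once over all genes and once over intact ORs with size factors from intact ORs. The scripts were tested on simulated data. Single values were compared by two-sided exact permutation tests over mice, which cannot go below 0.1. Python 3.11.15, numpy 2.4.6, pandas 2.3.3, scipy 1.17.1 and matplotlib 3.10.9 were used for summaries and figures. Coding sequences, positions and words came from GENCODE M21 and MOR names from RefSeq. Identity of coding sequences was used in place of protein identity, which was not analysed here. The members and the gene lists were chosen with earlier results of these data known.

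Values in every mouse are given for ORs past the threshold in the all-gene fit, the 5 ORs of highest mean FPKM, and the 5 with the largest change in each direction among ORs that averaged 10 or more counts. Olfr92, Olfr110 and Olfr134 were added for their near copies. Alternatives were TMM, edgeR's filterByExpr, DESeq2's Wald test, the replicate block, each mouse left out, scaling by the summed count of intact ORs, all OR genes with pseudogenes, scaling by the total count and sums without Olfr124. Shares without Olfr907 and counts over the ORs with at least 80% of words of their own were chosen after seeing the data. The sample titles carry the numbers 1 to 3 in each group and the methods call them sex-matched littermates. Deviations from the group means correlated at 0.139, 0.179 and 0.103 for mice with the same number over 18133 genes. For mice with different numbers the correlations lay between -0.219 and 0.0934, the highest of them close to 0.103. Deviations from a group mean cancel within the group, so these correlations are not independent of each other. On this weak ground the numbers were taken to pair the mice in the replicate block, although the titles do not say that a number marks a litter. The main fits and the permutation tests did not use the pairing. Each library is a separate sample in the labels, and p-values measure the spread between these samples.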

Additional observations from a re-analysis of the deposited data

How the results depend on the processing

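The all-gene count of higher ORs was 4 with DESeq2's Wald test, with Olfr101 and Olfr111 added, which also called Olfr123 lower (adjusted p = 0.014) and, among ORs, Olfr107 higher (adjusted p = 0.024). With each mouse left out the all-gene fit gave 0 to 2 higher and 9 to 15 lower ORs. Among ORs normalised by intact ORs, the oORs numbered 15 to 17 and the uORs 6 to 9 with each mouse left out. The 28 ORs with at least 80% of words of their own held 1 higher and 14 lower OR in the all-gene fit, and 8 oORs and 7 uORs. With the replicate block the all-gene fit gave 2 higher and 15 lower ORs, and the fit among ORs 17 and 9. It changed no call other than those given with the results.

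Scaling by the summed count of intact ORs gave 20 lower ORs in place of 8, and turned the sign, from plus to minus, of Olfr98 (-0.03), Olfr107 (-0.32), Olfr113 (-0.15), Olfr115 (-0.55), Olfr130 (-0.47) and Olfr137 (-0.69), of which none had passed before. The scaling lowered the log2 fold changes by a median of -0.78, by its own construction.

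Leaving out a mouse turned the sign of 10 log2 fold changes, none of which had passed in the same fit. In the all-gene fit they ranged from -0.41 to 0.05 for Olfr90, -0.31 to 1.51 for Olfr94, -1.13 to 0.83 for Olfr98, -0.13 to 0.10 for Olfr117 and -0.13 to 0.24 for Olfr128. Among ORs they ranged from -0.14 to 0.23 for Olfr95, -0.18 to 1.71 for Olfr98, -0.14 to 0.61 for Olfr115, -0.54 to 0.21 for Olfr126 and -0.39 to 0.01 for Olfr127. The ratio of summed counts was 0.622 to 0.732 and that of the share 0.731 to 0.831 with each mouse left out, and the share's ratio was 0.778 in all mice, 0.916 without Olfr124 and 0.849 without Olfr907. TMM and, among ORs, all OR genes with pseudogenes changed no call. Olfr95 (adjusted p = 0.061) and Olfr121 (adjusted p = 0.053) did not pass in the all-gene fit with filterByExpr, which left out Olfr94, Olfr98 and Olfr108.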

Other observations

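The naming rule left out other OR genes of the same stretch of chromosome 17. Olfr138, at chr17:38261035-38276410 and 95.3% identical in coding sequence to Olfr136, had 59.8, 104 and 75.7 normalised counts in the wild-type against 21.4, 14.0 and 21.4 in RTP1,2DKO, which gave a log2 fold change of -2.10 ± 0.37 (SE, adjusted p = 0.0061, edgeR). Olfr136 itself had a log2 fold change of -2.07, so these near copies fell by similar amounts. Olfr761, at chr17:37952051-37953079 and 94.1% identical to Olfr127, had at most 1.40 normalised counts in any mouse.

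The 3 genes with a -ps name lie in a row between Olfr103 and Olfr107. Olfr106-ps had 176, 161 and 126 normalised counts against 100.5, 53.9 and 67.3, and did not pass in the main test (-1.08 ± 0.28, adjusted p = 0.055) but did with the replicate block (adjusted p = 0.041). Olfr105-ps had 552, 503 and 424 against 376, 257 and 267 (-0.72 ± 0.19, adjusted p = 0.056, and 0.027 with the block). Olfr104-ps had 220.0, 264 and 219 against 188, 197 and 191 (-0.29 ± 0.18, adjusted p = 0.61). In all 3 every RTP1,2DKO mouse lay below every wild-type mouse. Of their intact neighbours, Olfr103 had an all-gene log2 fold change of 0.41 (adjusted p = 0.62) with overlap between the groups, and Olfr107 of -0.50 (adjusted p = 0.18) without overlap.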
